A study of Mus musculus with 18 samples.

Results

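The elastic fibre and microfibril genes are 10 mouse genes, Fbn1, Fbn2, Eln, Fbln1, Fbln2, Fbln5, Mfap2, Mfap4, Mfap5 and Mgp, found by Ensembl gene ID among the 55469 gene IDs of each table. They were selected on measured values, since Fbln2 and Mgp were chosen by their higher values in KO-TRAMP at 30 weeks and Fbn1 by its higher values in A537T-TRAMP at 10 weeks. Those comparisons are therefore described, and calls of members in them count as no test. The RNA came from prostates of 18 male mice, ventral with lateral lobes, and 3 mice stood for each genotype and age. All mice, controls included, carried 1 copy of TRAMP, which expresses SV40 T antigens from the probasin promoter in prostate epithelium and gives prostate tumours, on a strain the labels write as C56NL/6N. WT-TRAMP mice had unmodified Elac2, the gene of the nuclease that trims precursor tRNAs. KO-TRAMP mice lacked Elac2 in prostate epithelium, where Pb-Cre removes a floxed exon, so stromal, vascular and immune cells of their lobes kept the gene. A537T-TRAMP mice were homozygous for the A537T protein change in every cell. Each genotype was sampled at 10 weeks and at 30 weeks, and the labels describe removal of seminal vesicles, bladder, urethra, fat and connective tissue at dissection.

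The libraries held 9380174 to 14830104 reads and are called by the numbers heading their columns. At 10 weeks they are 1 to 3 for WT-TRAMP, 4 to 6 for A537T-TRAMP and 7 to 9 for KO-TRAMP. At 30 weeks they are 10 to 12 for WT-TRAMP, 13 to 15 for A537T-TRAMP and 16 to 18 for KO-TRAMP. The 3 columns shared by both tables of an age were taken as WT-TRAMP. Elac2, counted over the whole gene and over all cells of the lobes, had 249 to 301 normalised counts in KO-TRAMP and 251 to 359 in WT-TRAMP, so its total does not check the labels. Epithelial markers of the prostate were present in every library, and all 10 on the list had a mean count of at least 10 in every comparison. At 10 weeks their sum was 143642 to 159713 in KO-TRAMP, below the 259633 to 336057 of WT-TRAMP. Their mean log2 count overlapped, at 11.77 to 11.84 against 11.28 to 11.83. In libraries 4, 5 and 6 the sum was 329911, 27404 and 170158, against 231869 to 301786 in WT-TRAMP as scaled with them. Several libraries stood apart. The summed count of 8 seminal vesicle markers reached 1156560 in library 5 and 180136 in library 9. In the WT-TRAMP libraries at 10 weeks it was 19.3 to 49.5 as scaled with library 5 and 21.0 to 54.0 as scaled with library 9. At 30 weeks it ranged from 12.5 to 496832 within WT-TRAMP alone. The summed count of 8 neuroendocrine markers was 16096 in library 17 and 10111 in library 18, against 4.12 in library 16 and at most 1516 in WT-TRAMP. Results that rest on these libraries are given with and without them.

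Elastic fibres let vessels, ducts and gland walls stretch and recoil. They consist of a core of cross-linked elastin deposited on a scaffold of fibrillin microfibrils, and fibulins and microfibril-associated proteins join both parts during assembly. In the prostate such fibres lie in the stroma around the glands and in vessel walls, and they are made mainly by fibroblasts and smooth muscle cells. Fibrillins also hold latent TGF-beta and BMP complexes in the matrix.

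The fibrillin genes Fbn1 (ENSMUSG00000027204.13, chromosome 2, 125300594 to 125507993, minus strand) and Fbn2 (ENSMUSG00000024598.9) encode the microfibril backbone. Eln (ENSMUSG00000029675.12, chromosome 5, 134702593 to 134747323, minus strand) encodes the elastin core. The fibulin genes are Fbln1 (ENSMUSG00000006369.14, chromosome 15, 85205949 to 85286535, plus strand), Fbln2 (ENSMUSG00000064080.12, chromosome 6, 91212455 to 91272540, plus strand) and Fbln5 (ENSMUSG00000021186.9, chromosome 12, 101746565 to 101819055, minus strand). The microfibril-associated genes are Mfap2 (ENSMUSG00000060572.17, chromosome 4, 141010418 to 141015984, plus strand), Mfap4 (ENSMUSG00000042436.12, chromosome 11, 61485431 to 61488900, plus strand) and Mfap5 (ENSMUSG00000030116.14, chromosome 6, 122505845 to 122529290, plus strand). Mgp (ENSMUSG00000030218.2, chromosome 6, 136872435 to 136875823, minus strand) encodes matrix Gla protein, an inhibitor of calcification that keeps elastic fibres free of mineral. Positions are on GRCm38 and all 10 genes are protein coding. At most 0.661% of the 31-base words of any of them occurred in another annotated gene, so the family members can be told apart. Genes on the opposite strand overlap Fbn1, Fbn2, Eln and Mfap4, and the authors' counting used strand.

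RefSeq promoter windows matched 5 of the 10 genes, Fbn1, Fbln1, Fbln2, Fbln5 and Mfap2. RefSeq also gives a further window for each of Fbln1 and Fbln5, which overlaps annotated exons and is not shown. The 250 bases before the start are shown for Fbln1 and Fbln5, the fibulin genes that were highest in the same pair of KO-TRAMP libraries at 30 weeks and have a window outside annotated exons. Both are GRCm38.p6 sequence, read 5′ to 3′ on the gene's own strand from chr15:85205699-85205948 on the plus strand and chr12:101819120-101819369 on the minus strand. Capitals mark matches, on either strand, to the GC box GGGCGG, the CCAAT box, the SMAD box CAGACA, the TATA box TATAAA, the AP-1 letters TGANTCA and the TEAD letters CATTCC.
Fbln1: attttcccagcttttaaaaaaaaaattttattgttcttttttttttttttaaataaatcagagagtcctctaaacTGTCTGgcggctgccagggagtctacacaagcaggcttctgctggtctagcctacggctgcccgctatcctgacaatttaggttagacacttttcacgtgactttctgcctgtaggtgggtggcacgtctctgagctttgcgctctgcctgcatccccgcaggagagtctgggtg
Fbln5: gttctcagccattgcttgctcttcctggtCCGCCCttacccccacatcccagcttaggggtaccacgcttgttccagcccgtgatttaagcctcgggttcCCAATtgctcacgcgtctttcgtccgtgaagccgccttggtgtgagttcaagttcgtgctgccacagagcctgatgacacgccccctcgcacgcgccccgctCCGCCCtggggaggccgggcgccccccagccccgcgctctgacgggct
The Fbln1 window held 1 SMAD box match, 175 bases before the start, which 17.1% of all 32851 windows of this length also hold. The Fbln5 window held 2 GC boxes, 221 and 48 bases before the start, and 1 CCAAT box 150 bases before it, which 32.7% and 33.8% of all windows hold. Between the 2 windows shown no motif was shared. The further Fbln5 window held a SMAD box 15 bases before its start. The further Fbln1 window overlaps the one shown and held a GC box 11 bases before its start. Its SMAD box, 234 bases before its start, is the same site as that in the window shown. The GC content of the windows shown was 46.4% and 65.2%, against a median of 52.4% over all windows.

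Per kilobase of exon, Mgp was the most abundant member in all 6 groups. In WT-TRAMP at 30 weeks it reached 27.5 ± 2.0 reads per kilobase and 1000000 reads (SD, n = 3), against 3.67 ± 1.32 for Fbln1, 2.26 ± 0.50 for Fbn1, 1.79 ± 0.15 for Mfap4 and 1.32 ± 0.038 for Fbln2. Eln followed at 0.961 ± 0.46, then Mfap5 at 0.806 ± 0.30, Fbn2 at 0.612 ± 0.087, Mfap2 at 0.543 ± 0.29 and Fbln5 at 0.201 ± 0.057. In this order only Mgp and Fbln1, Mfap4 and Fbln2, and Mfap2 and Fbln5 did not overlap as neighbours, while each remaining neighbouring pair overlapped between libraries. In WT-TRAMP at 10 weeks Mgp stood at 22.8 ± 5.2 and Fbln5 again came last, at 0.146 ± 0.040. On this scale Fbn2 had 0.225 ± 0.095 and Eln 0.475 ± 0.075 at 10 weeks, both below their 30-week levels. This scale sets tables side by side that were estimated separately. For members with at least 20 reads, the share of reads in the same WT-TRAMP library in the A537T-TRAMP table was 0.885 to 1.09 times that in the KO-TRAMP table, so age and genotype were not tested across tables.

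At 30 weeks the members were higher in KO-TRAMP than in WT-TRAMP, most evenly for Fbn1, Fbln2, Mfap5 and Mgp. In 9 of 10 members every KO-TRAMP library lay above every WT-TRAMP library, beside 10.8% of the 16900 genes tested, and Fbn2 was the exception. Across the 10 members the log2 difference, KO-TRAMP minus WT-TRAMP on log2(normalised count + 1), ranged from 0.55 to 2.29 with a median of 1.83, against a median of 0.01 over all genes tested. The limma threshold of an adjusted p of 0.05 was met by 3 members, Fbn1, Fbln2 and Mgp, beside 0.213% of genes, and nothing is read from that count. This comparison chose Fbln2 and Mgp, and Mfap2 passed the minimum mean count of 10 here alone, through its KO-TRAMP values, so these counts are descriptions. Members called numbered 0 without library 10, 12 or 18, each beside 0 genes, and 0 without library 11, beside 2 genes. They numbered 2 without library 17, beside 13 genes, and 8 without library 16, beside 3064 genes. In such bulk samples more cells of a type and more RNA per cell cannot be told apart.

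Of the microfibril scaffold, Fbn1 had 396, 252 and 356 normalised counts in the WT-TRAMP libraries and 1357, 1183 and 1182 in the KO-TRAMP libraries. The KO-TRAMP libraries lay close together and far above WT-TRAMP, with a mean of 1241 ± 101 against 335 ± 74.1 (SD, n = 3 each), 3.71-fold higher. Fbn2, the fibrillin of developing tissue, had 113, 85.4 and 98.0 in WT-TRAMP and 92.6, 243 and 134 in KO-TRAMP. Its groups overlapped, since library 16 lay within the WT-TRAMP range, and its log2 difference was 0.55 (SE 0.37).
Mfap5, a glycoprotein bound along fibrillin, had 20.1, 45.1 and 41.0 in WT-TRAMP and 188, 139 and 139.9 in KO-TRAMP. All 3 KO-TRAMP libraries lay above WT-TRAMP, 4.40-fold on the means. Mfap4, which binds elastin and fibrillin, had 45.9, 40.3 and 39.9 in WT-TRAMP and 77.2, 139.9 and 79.4 in KO-TRAMP, where library 17 stood above the other two. Mfap2, the small microfibril glycoprotein that binds TGF-beta, had 12.3, 3.84 and 7.98 in WT-TRAMP and 15.4, 70.7 and 41.8 in KO-TRAMP. It rests on 4 to 97 reads a library and library 16 was only just above library 10.

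Among the fibulins, Fbln2, which joins fibrillin to elastin and basement membranes, had 99.6, 104 and 106 in WT-TRAMP and 546, 389 and 476 in KO-TRAMP. The WT-TRAMP libraries agree within a few counts and every KO-TRAMP library was far above them, 4.57-fold on the means. Fbln1, found in elastic fibres and vessel walls, had 267, 128 and 193 in WT-TRAMP and 338, 970.1 and 736 in KO-TRAMP. Fbln5, which brings elastin to the microfibrils and cross-linking enzymes to elastin, had 20.1, 11.5 and 19.4 in WT-TRAMP and 25.7, 163 and 142 in KO-TRAMP. In both genes libraries 17 and 18 stood well above library 16, which was close to WT-TRAMP. Eln had 141, 50.9 and 93.5 in WT-TRAMP and 156, 269 and 198 in KO-TRAMP, and library 16 was only just above library 10. Mgp had 398, 371 and 429.7 in WT-TRAMP and 1269, 1429 and 1334 in KO-TRAMP. Its means were 399.8 ± 29.2 and 1344 ± 80.9, a 3.36-fold difference with the smallest SE of the 10, 0.11 on a log2 difference of 1.75.

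**Figure D1:**
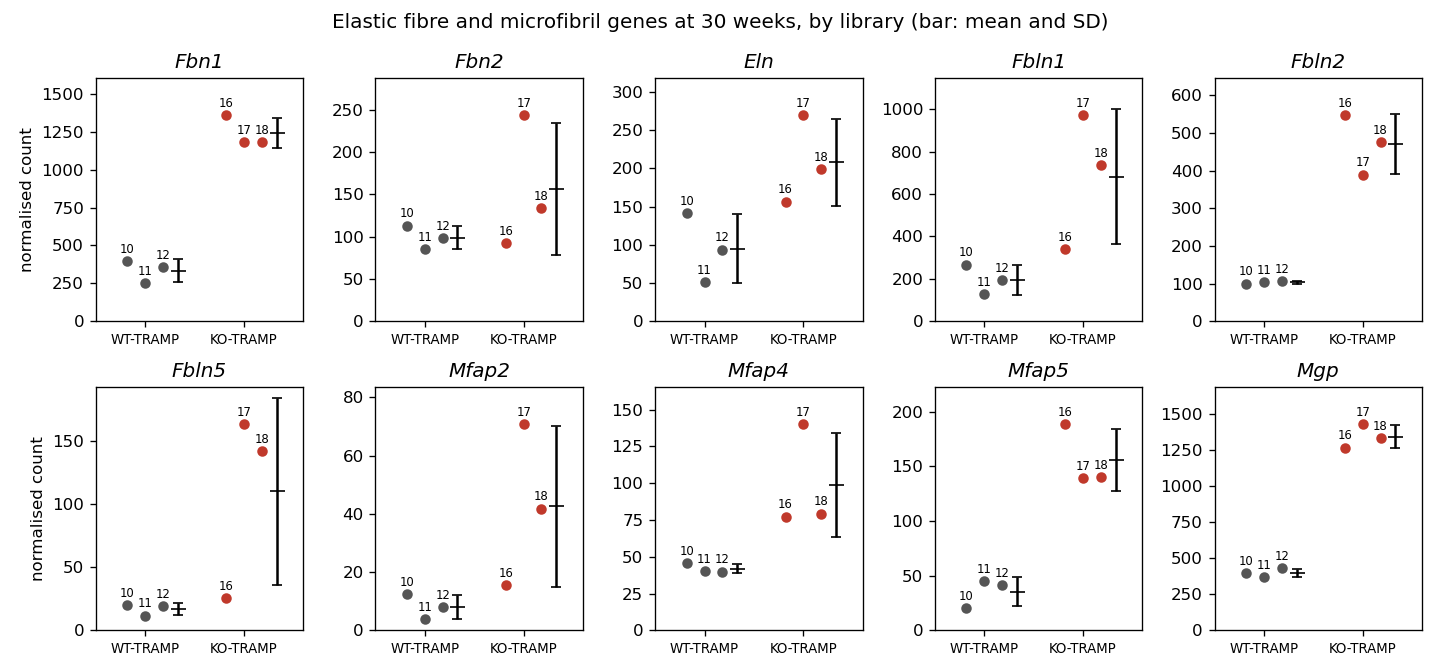
Normalised counts (vertical axes, from 0) of the 10 genes in the 3 WT-TRAMP libraries, grey, and the 3 KO-TRAMP libraries, red, at 30 weeks; numbers name libraries and bars give the mean and SD. Fbn1, Fbln2, Mfap5 and Mgp were raised to a similar level in libraries 16, 17 and 18, while Fbln1, Fbln5 and Mfap2 were highest in libraries 17 and 18.

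The members thus differed in how even they were among the KO-TRAMP libraries. The highest over the lowest KO-TRAMP library was 1.13-fold for Mgp, 1.15-fold for Fbn1, 1.35-fold for Mfap5 and 1.40-fold for Fbln2. It was 6.35-fold for Fbln5, 4.58-fold for Mfap2, 2.87-fold for Fbln1 and 2.63-fold for Fbn2, with library 17 the highest in each. Eln, at 1.72-fold, and Mfap4, at 1.81-fold, lay between these sets. Relative to the WT-TRAMP mean, library 16 alone differed by 2.04 in Fbn1, 2.40 in Fbln2, 2.46 in Mfap5 and 1.67 in Mgp on the log2 scale, close to the differences of libraries 17 and 18. The same library differed by 0.85 in Fbln1, 0.61 in Fbln5 and −0.08 in Fbn2. Without libraries 17 and 18 the median over the members was 0.86. It rests on library 16 alone, so no call or p-value of that fit is given.
The libraries also differed in other cell markers. The summed count of 8 endothelial markers was 745 in library 16, 3448 in library 17 and 2355 in library 18, against 456 to 566 in WT-TRAMP, and all 8 were higher in KO-TRAMP. The sum of 10 smooth muscle markers was 8710 in library 16, below the WT-TRAMP range of 17116 to 29226, and 42370 and 29269 in libraries 17 and 18. The part of these markers, and of the neuroendocrine markers given above, in the values of the uneven members was not tested.

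**Figure D2:**
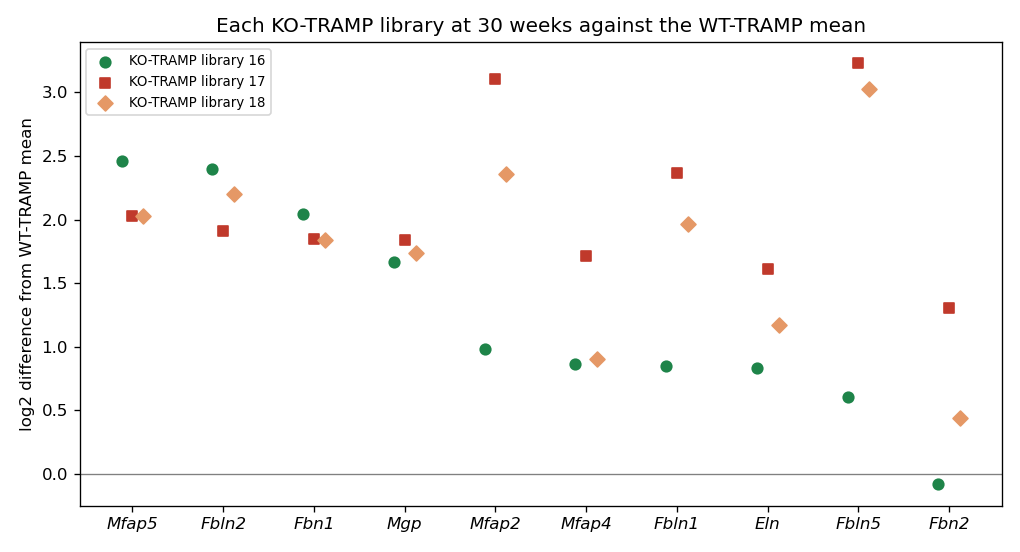
Log2 difference of each KO-TRAMP library at 30 weeks from the mean of the 3 WT-TRAMP libraries (vertical axis) for the 10 genes, ordered by library 16. Library 16, green circles, lay with libraries 17 and 18 for Mfap5, Fbln2, Fbn1 and Mgp and far below them for Fbln5, Mfap2 and Fbln1.

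Fibroblast markers moved with the members. All 10 on the list (Pdgfra, Dcn, Lum, Col1a1, Col1a2, Col3a1, Dpt, Pi16, Thy1 and Clec3b) were higher in KO-TRAMP at 30 weeks, and their summed count was 17507 to 22730, against 4441 to 5054 in WT-TRAMP. Set per 1000 counts of this list, which was done after the values were seen, Fbn1 had 59.7 to 67.6 in KO-TRAMP and 56.8 to 83.5 in WT-TRAMP. Fbln2 had 22.2 to 24.3 against 21.0 to 23.3, and Mfap5 7.13 to 8.28 against 4.25 to 10.2. The groups of these 3 genes overlapped on that scale. Mgp had 55.8 to 81.6 in KO-TRAMP and 83.6 to 85.0 in WT-TRAMP, and Fbn2 had 4.07 to 13.9 against 19.2 to 23.8, both lower in every KO-TRAMP library. Of the 10 members 6 had a lower mean per fibroblast-list count in KO-TRAMP and 4 a higher one, with ratios from 0.397 for Fbn2 to 1.66 for Fbln5. A sum is weighted to the most abundant markers, so these are not values per fibroblast. Library 16 had the highest fibroblast sum, 22730, but the lowest mean log2 count of the list in KO-TRAMP. That mean was 8.67 in library 16, 9.37 in 17 and 9.33 in 18, against 7.29 to 7.65 in WT-TRAMP. Per 1000 counts of the smooth muscle list all 10 had a higher mean in KO-TRAMP, by 1.59 to 6.25-fold, and 9 did not overlap. The size of these ratios leans on library 16, whose smooth muscle sum was the lowest, at 8710. Fbln2 spanned 9.19 to 62.7 in KO-TRAMP on that scale, against 3.41 to 6.06 in WT-TRAMP. The part of the cell makeup in the members' values was not tested beyond these ratios.

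In A537T-TRAMP at 30 weeks the members stood higher than in WT-TRAMP by smaller amounts, and none passed in limma, edgeR or DESeq2. This comparison was not used to choose the genes, but it shares its WT-TRAMP libraries with the KO-TRAMP comparison. All 9 members tested had a positive log2 difference, from 0.18 to 1.26 with a median of 0.68, against a median of 0.00 over the 16261 genes tested. By limma 0 members passed an adjusted p of 0.05, as did 0% of genes, and edgeR and DESeq2 also called 0 members. With array weights, which let libraries differ in their spread, limma called 6 members, Fbn1, Fbn2, Fbln1, Fbln2, Mfap5 and Mgp, among 3388 genes. The unadjusted p was below 0.05 for 5 members and for 1173 genes. All A537T-TRAMP libraries lay above all WT-TRAMP libraries in 4 of the 10 members, beside 7.36% of genes.
Those 4 were Fbn1, Fbln2, Mfap5 and Mgp, the genes that were also even among the KO-TRAMP libraries. Fbln2 had 102, 105 and 107 in WT-TRAMP and 291, 137 and 190.4 in A537T-TRAMP, a log2 difference of 0.90 (SE 0.26, adjusted p = 0.598 in limma). Mfap5 had 19.0, 43.0 and 38.4 against 112, 66.8 and 60.8, a difference of 1.26 (SE 0.39, adjusted p = 0.625 in limma). Library 13 was the highest A537T-TRAMP library in both genes, and none of the 3 reached into the WT-TRAMP range.
Mgp had 378, 349.7 and 404 in WT-TRAMP and 787, 454 and 600.1 in A537T-TRAMP, a difference of 0.67 (SE 0.20, adjusted p = 0.602 in limma). Fbn1 had 372, 235 and 331 against 632, 425 and 442, a difference of 0.68 (SE 0.22, adjusted p = 0.666 in limma). Library 13 was again the highest in both. For these 4 genes the exact permutation test gave p = 0.1, the smallest that 3 libraries against 3 allow.
Fbln1, with 254, 120.2 and 181 in WT-TRAMP and 334, 217 and 418 in A537T-TRAMP, overlapped between the groups, as did Eln, Fbn2, Fbln5 and Mfap4. Mfap4 had the smallest difference, 0.18 (SE 0.29), and its sign turned to −0.083 without library 13. Mfap2, at 2 to 11 reads a library, was below the minimum.

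Fibroblast markers were higher here as well, 9 of 10 by limma's estimate with 0 past the threshold, and their sum was 6809 to 11491 against 4235 to 4827. Their mean log2 count was 8.82, 7.42 and 8.29 in libraries 13, 14 and 15. Library 14 lay within the WT-TRAMP range of 7.22 to 7.60 on that measure. Library 13, then 15, then 14 was the order of the A537T-TRAMP libraries in that sum and in Mgp, Fbn1 and Fbln2, while Mfap5 fell in the order 13, 14, 15. The order 13, 15, 14 was also that of the summed counts of seminal vesicle markers (626736, 291957 and 35.8), smooth muscle markers (36576, 24701 and 11663), endothelial markers (927, 624 and 413) and macrophage markers (2107, 1362 and 1145). All 6 macrophage markers had a positive difference, and their WT-TRAMP sums were 801 to 1026. The part of these markers in the members' values was not tested. Per 1000 fibroblast-list counts Mgp had 66.7 to 68.4 in A537T-TRAMP and 82.6 to 83.8 in WT-TRAMP, so it was lower in all 3 libraries. Fbn1, Fbln2 and Mfap5 overlapped on that scale. The mean on that scale was lower in A537T-TRAMP for 9 of the 10 members and higher for Mfap5. Fbn2, Mfap4 and Mfap2 too were lower without overlap, with ratios of means of 0.742, 0.586 and 0.322. Mfap2 rests on 2 to 11 reads a library. Per 1000 smooth muscle counts 9 members had a higher mean and Mfap2 a lower one. On that second scale 3 members, Fbn1, Fbln2 and Fbln5, did not overlap. Whether the KO-TRAMP and A537T-TRAMP differences at 30 weeks are unequal was not tested, because the tables were estimated separately.

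**Figure D3:**
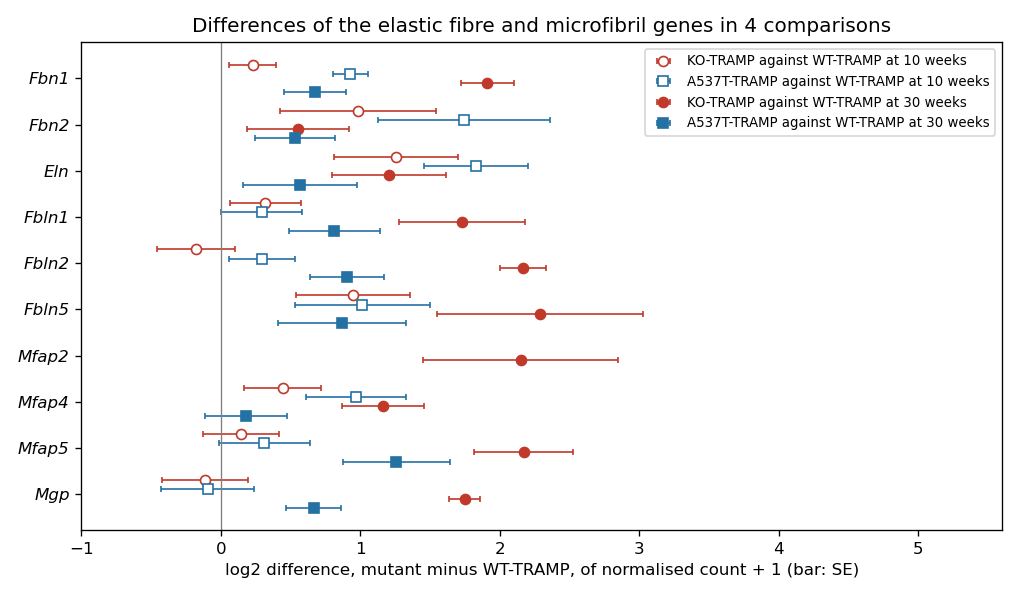
Log2 difference of each gene (horizontal axis, mutant minus WT-TRAMP, log2 of normalised count + 1) with its SE in 4 comparisons; open symbols are 10 weeks, filled symbols 30 weeks, circles KO-TRAMP and squares A537T-TRAMP. Fbn1, Fbln2, Mfap5 and Mgp reach 1.75 to 2.17 in KO-TRAMP at 30 weeks, and Mgp lies at −0.10 and −0.11 at 10 weeks; Mfap2 was above the minimum in 1 comparison only.

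At 10 weeks the differences of A537T-TRAMP from WT-TRAMP were largest for Eln and Fbn2 and most even for Fbn1. Fbn1 had 197, 213 and 212 normalised counts in WT-TRAMP and 395, 398 and 393 in A537T-TRAMP. Both groups were tight and far apart, with means of 207 ± 9.10 and 395 ± 2.35. This 1.91-fold difference chose the gene, so no call of it counts as a test. Without libraries 5 and 6, which held most seminal vesicle RNA, the log2 difference of Fbn1 was 0.93, as it was with them. All 10 fibroblast markers were higher here too, with sums of 4920 to 6765 against 2889 to 4290 in WT-TRAMP, and all 7 endothelial markers tested, with 241 to 565 against 170 to 204. Per 1000 fibroblast-list counts Fbn1 had 58.1 to 80.2 in A537T-TRAMP and 45.9 to 73.4 in WT-TRAMP, with overlap. The part of these cell types in the Fbn1 values was not tested beyond this ratio.
Eln had 43.4, 44.9 and 33.3 in WT-TRAMP and 83.0, 219 and 169.7 in A537T-TRAMP. Fbn2 had 46.6, 19.6 and 28.3 in WT-TRAMP and 39.9, 209 and 124 in A537T-TRAMP. Libraries 5 and 6 were high in both genes, and library 4 lay above WT-TRAMP in Eln and within its range in Fbn2. With library 4 alone the log2 difference of Eln was 1.03 in place of 1.83, and that of Fbn2 0.42 in place of 1.74.
Mfap4 had 49.0, 41.5 and 28.3 against 117, 55.3 and 68.8 and Fbln5 7.23, 12.7 and 11.1 against 14.6, 19.9 and 33.3, without overlap in either. With library 4 alone the difference of Mfap4 was 1.58 in place of 0.97 and that of Fbln5 0.50 in place of 1.01. Mgp (265, 341 and 218 against 286, 367 and 154), Fbln1, Fbln2, Mfap2 and Mfap5 overlapped between the groups. So 4 of 10 members lay above WT-TRAMP in every A537T-TRAMP library, beside 6.92% of genes, and 0 of the 9 tested passed the threshold in limma, beside 0.00648% of genes. DESeq2 called Fbn1 and Eln, among 148 genes, and edgeR called 0. In limma 4 members had an unadjusted p below 0.05, as did 1218 genes. Without library 4, Eln passed in limma, among 65 genes. These counts too are descriptions, since this comparison chose Fbn1, and nothing is read from them.

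KO-TRAMP at 10 weeks, which was not used to choose the genes, showed no member past the test. Of 9 members tested 7 had a positive log2 difference and 2 a negative one, with a range from −0.18 to 1.26 and a median of 0.32, against −0.01 over all 15451 genes tested. By limma 0 members and 0.0129% of genes passed, edgeR and DESeq2 called 0 members, and 2 members and 1026 genes had an unadjusted p below 0.05. The KO-TRAMP libraries lay above all WT-TRAMP libraries in 2 of 10 members, Eln and Fbln5, beside 5.77% of genes. This comparison shares its WT-TRAMP libraries with that of A537T-TRAMP at 10 weeks.
Eln had 46.3, 47.5 and 35.2 in WT-TRAMP and 48.6, 124 and 182 in KO-TRAMP, a log2 difference of 1.26 (SE 0.45, adjusted p = 0.716 in limma). Library 7 was only just above WT-TRAMP, while libraries 8 and 9 were well above it. Without libraries 8 and 9 the difference was 0.18.
Fbn2 had 49.0, 21.2 and 29.7 against 35.1, 155 and 45.9, so that library 8 alone was above WT-TRAMP. Fbln5 had 7.87, 13.7 and 12.1 against 24.3, 16.6 and 26.6, on 9 to 29 reads, with a difference of 0.95 (SE 0.41, adjusted p = 0.742 in limma). It was 1.08 without libraries 8 and 9.
Fbn1 had 224, 241 and 242 against 217, 311 and 313. Libraries 8 and 9 were above WT-TRAMP and library 7 below it, so the sign turned to −0.12 without libraries 8 and 9. Mgp had 291, 375 and 241 against 237, 195 and 450.1 and Fbln2 79.6, 130.0 and 115 against 72.8, 132 and 84.5, with overlap in both. These 2 genes, chosen by their values at 30 weeks, thus had log2 differences of −0.11 (SE 0.31) and −0.18 (SE 0.28) at 10 weeks. The sign for Mgp turned to 0.05 without library 2 and to 0.14 without library 8.

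The libraries that were high in Eln and Fbn2 at 10 weeks were also high in smooth muscle markers. All 10 smooth muscle markers had positive differences in both comparisons, with 0 past the threshold in limma, and their sum was 14721 in library 8, 13432 in library 9, 32856 in library 5 and 17786 in library 6. It was 9278 in library 7 and 11484 in library 4. In WT-TRAMP it was 5188 to 8661 as scaled with the KO-TRAMP libraries and 4625 to 7740 as scaled with the A537T-TRAMP libraries. Seminal vesicle markers were highest in the same libraries, at 5937 and 180136 in libraries 8 and 9 and 1156560 and 135158 in libraries 5 and 6, and 5025 in library 4. All 8 of the seminal vesicle list were higher in each mutant line. Their part in the Eln and Fbn2 values was not tested. Per 1000 smooth muscle counts the mean of Eln was 1.43 times that of WT-TRAMP in KO-TRAMP and 1.17 times in A537T-TRAMP, and that of Fbn2 1.12 and 1.00 times, with overlap in each case. Of the 10 members 7 had a lower mean on that scale in KO-TRAMP and 8 in A537T-TRAMP. Lower without overlap were Fbn1, Fbln1, Fbln2 and Mfap5 in KO-TRAMP, and Fbln1, Fbln2, Mfap5 and Mgp in A537T-TRAMP. Per 1000 fibroblast-list counts Eln was 2.18 times and 2.33 times as high, without overlap, and the members split into 5 higher and 5 lower in each line. Mgp was 0.627 times as high in A537T-TRAMP on that scale, also without overlap.

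**Figure D4:**
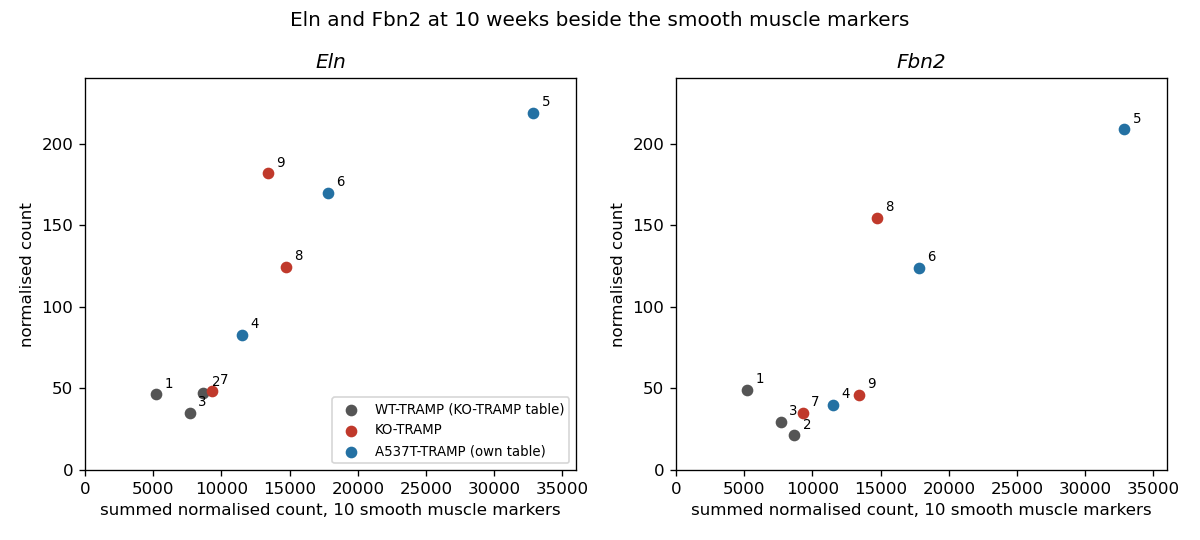
Normalised counts of Eln and Fbn2 (vertical axes) against the summed normalised count of 10 smooth muscle markers (horizontal axes) at 10 weeks, 1 point per library with its number, WT-TRAMP from the KO-TRAMP table. Libraries 5, 6 and 8 are high on both axes in both panels, and library 9 is high in Eln, at 182, and near WT-TRAMP in Fbn2, at 45.9.

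Beyond the 10 members, 42 genes of elastic fibre assembly, anchoring and breakdown were followed by role. At 30 weeks in KO-TRAMP, 40 were tested, 31 had a positive and 9 a negative log2 difference, and the median was 0.58 against 0.01 over all genes. One of them, the matrix protease Mmp2, passed the threshold, beside the 0.213% above. It had 222 ± 16.1 normalised counts in WT-TRAMP and 563 ± 71.5 in KO-TRAMP, a log2 difference of 1.33 (SE 0.14). It no longer passed without library 10, 11, 12, 17 or 18, nor in edgeR, and DESeq2 called it too.
All 5 cross-linking enzymes, the lysyl oxidases that join elastin molecules, had positive differences, with a median of 1.86. Lox had 138 ± 19.6 against 937 ± 582, Loxl1 24.7 ± 5.75 against 104 ± 11.2, and Loxl2 48.1 ± 6.92 against 178 ± 32.5. The KO-TRAMP libraries of these 3 did not overlap with WT-TRAMP. They missed the threshold in limma and passed it in DESeq2, as did Emilin2 and Ctss, and Loxl2 also passed in limma with a pseudocount of 0.5. Without library 16 all of these genes passed in limma, among 3064 genes, as did Ltbp3 and Ggcx, which were lower. The log2 difference of Lox was 2.10 without library 16 and 3.51 with it as the only KO-TRAMP library. Array weights called Lox, Loxl1, Loxl2, Emilin2 and Ctss, which were higher in KO-TRAMP, among 10748 genes. The same fit called Ltbp3, Ggcx and Fbln7, which were lower.
Emilins and multimerins, glycoproteins of the elastin surface and of vessels, had a median of 1.63 over 4 genes, and Emilin2 stood at 7.29 ± 3.70 against 62.4 ± 10.5. Proteases that can cut elastin had a median of 1.12 over 6 genes, with Ctss, a macrophage cathepsin, at 560.5 ± 18.7 against 1059 ± 128. Macrophage markers were higher too, 6 of 6, with sums of 2411 to 3178 against 844 to 1054, and their part in the protease values was not tested.
The latent TGF-beta binding proteins had a median of 0.29 and the integrin receptors, which tie cells to fibrillin and fibulins, one of 0.09. The lowest t values of the list belonged to Ltbp3, at 984 ± 165 against 595 ± 160.5, Ggcx, the carboxylase that activates Mgp, at 341 ± 44.9 against 229 ± 50.5, and Fbln7 at 47.4 ± 31.8 against 18.9 ± 8.79.

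In A537T-TRAMP at 30 weeks 32 of 38 genes tested had a positive difference, with a median of 0.18, and 0 passed in limma. The unadjusted p in limma was below 0.05 for 9 of the 38, beside 1173 of all 16261 genes tested. Lox had 128 ± 18 against 273 ± 45.7, a log2 difference of 1.08 (SE 0.18, adjusted p = 0.235 in limma). Emilin2 had 6.84 ± 3.50 against 36.4 ± 4.34, a difference of 2.35 (SE 0.46, adjusted p = 0.357 in limma), and Mmp2 205 ± 13.6 against 330.3 ± 54.9. DESeq2 called these 3, with adjusted p of 0.00064 for Lox, 0.012 for Emilin2 and 0.046 for Mmp2. Array weights called them too, and also Ltbp3, which was lower, among 3388 genes. The lowest t values belonged to Ltbp3, Fbln7 and Adamts10, with differences of −0.32, −0.67 and −0.50.
At 10 weeks 0 genes of the list passed in limma in either line, with an unadjusted p below 0.05 for 4 of 38 in KO-TRAMP and 10 of 37 in A537T-TRAMP. Over all genes tested these counts were 1026 of 15451 in KO-TRAMP and 1218 of 15438 in A537T-TRAMP. In KO-TRAMP the highest t values were those of Efemp2, the fibulin needed for elastin cross-linking, at 0.79, Bmp4, a growth factor that Mgp binds, at 1.01, and Ltbp4 at 0.70. The lowest were those of Loxl4 at −0.49, Adamtsl3 at −0.90 and Itgav at −0.05, all as log2 differences. In A537T-TRAMP the highest belonged to Emilin1 at 0.78, Loxl1 at 1.28 and Efemp1 at 1.36, and the lowest to Ctss at −0.76, Adamtsl2 at −1.25 and Ctsl at −0.17. Of the fibulin Efemp1, A537T-TRAMP had 171 ± 80.6 normalised counts and WT-TRAMP 61.2 ± 11.

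**Figure D5:**
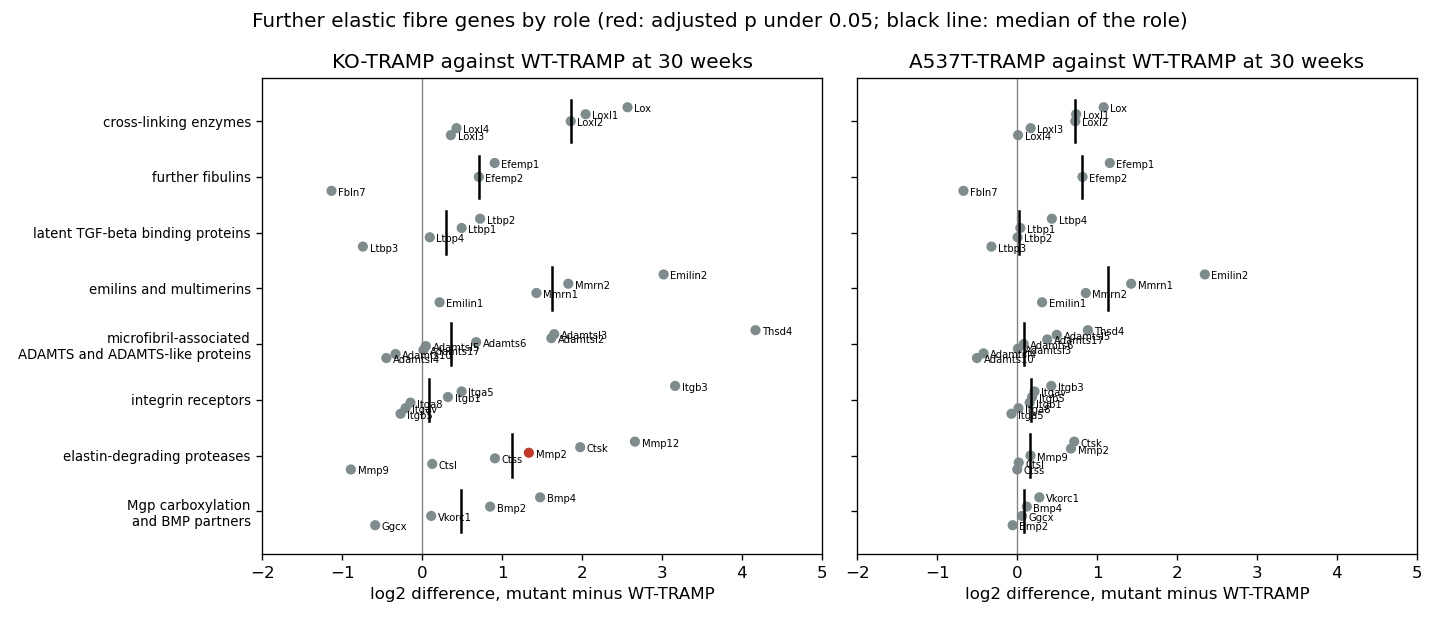
Log2 differences (horizontal axes) of the tested genes among 42 further elastic fibre genes by role at 30 weeks, KO-TRAMP on the left and A537T-TRAMP on the right; the black line is the median of a role and red marks an adjusted p under 0.05. Cross-linking enzymes have a median of 1.86 on the left and 0.73 on the right, and Mmp2 is the single red point.

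The genes whose levels over the 18 libraries were most like the mean of the 10 members, each scaled to the same spread, were Col4a2, Fstl1, Col14a1, Cd93 and Igfbp7, out of 9606 protein-coding genes compared. Col4a2 encodes a basement membrane collagen, Fstl1 and Igfbp7 secreted proteins, Col14a1 a fibril-associated collagen and Cd93 an endothelial receptor. Their Pearson correlations were 0.948, 0.945, 0.932, 0.931 and 0.927 over 18 libraries, and 0.882, 0.885, 0.735, 0.831 and 0.857 over the 15 libraries outside KO-TRAMP at 30 weeks. These values describe the libraries, which share genotypes, ages and cell makeup.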

How the data were processed

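RNA of ventral and lateral lobes was sequenced from 18 mice. The authors trimmed reads with Trim Galore 0.4.1 and cutadapt 1.18, aligned with STAR 2.7.3a to masked GRCm38, quantified with Salmon on GENCODE by strand and normalised with DESeq2 1.26. They deposited normalised counts, a signal in which estimated reads were scaled by a size factor for every library, separately in each of 4 tables of 6 libraries. All values were whole multiples of 1 step per library (tolerance 0.01), so reads were recovered. For the WT-TRAMP libraries of an age, 30.9% to 37.6% of genes had identical reads in both tables. Their further files, with shrunken fold changes and s-values of the authors' own comparisons, were not used. No sample column was left out.

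Each line was compared with WT-TRAMP of its age within its table. limma 3.58.1 in R 4.3.3 was run on log2(normalised count + 1) for genes with a mean of at least 10, with a two-sided Benjamini-Hochberg threshold of 0.05 over all genes tested. On this scale changes of low genes are understated. The study matched males by age and litter, but no label or header ties a library to a litter, so the tests were unpaired. Where mice of a group shared a litter, p-values measure only the spread between these samples. Tests were tried on simulated data. The alternatives were pseudocounts of 0.5 and 10, no filter, TMM factors, edgeR 4.0.16 and DESeq2 1.42.0 on recovered reads, array weights, and leaving out each library. Leaving out libraries 8 and 9, 5 and 6, or 17 and 18, and the ratios to marker lists, were added after seeing the data. Levels per length divide reads per 1000000 by the exon length of an earlier GENCODE release.

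The members and lists were chosen with earlier results of these data known. By rule the text names all 10 members, the genes of the 42-gene list that pass or have the 3 highest or lowest t in a comparison, and the 5 genes closest in pattern. Lox, Emilin2 and Ctss in KO-TRAMP at 30 weeks were named after their values were seen.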

Additional observations from a re-analysis of the deposited data

Results flagged for a closer look

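Mfap2 moved in opposite directions in the mutant lines at 30 weeks: every KO-TRAMP library lay above the WT-TRAMP mean and every A537T-TRAMP library below it. The ratio of means, mutant over WT-TRAMP, was 5.30 in KO-TRAMP and 0.659 in A537T-TRAMP. The difference between the lines was not tested, and the A537T-TRAMP table holds 2 to 11 Mfap2 reads per library. In A537T-TRAMP library 13 was at 6.55 and library 15 at 5.98, both within the WT-TRAMP range of 3.59 to 11.6.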

How the results depend on the processing

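In KO-TRAMP at 30 weeks, which chose Fbln2 and Mgp, calls of members are descriptions. Fbn1, Fbln2 and Mgp met the threshold there, also under pseudocounts of 0.5 and 10, no filter and TMM factors, and edgeR called Fbln2 and Mgp. DESeq2 called 7 members there, and 2 at 10 weeks in A537T-TRAMP. At 30 weeks array weights called 10 members for KO-TRAMP and 6 for A537T-TRAMP, and at 10 weeks 0 for either line.
At 10 weeks 2 genes were called for KO-TRAMP and 1 for A537T-TRAMP, and at 30 weeks 36 and 0. In that order the counts were 83, 148, 805 and 166 with DESeq2, 0, 0, 15 and 0 with edgeR, and 4, 10748 and 3388 in the last 3 with array weights. A pseudocount of 0.5 gave 0 in A537T-TRAMP at 10 weeks. The cause was not tested.
Leaving out 1 library moved these counts over 1 to 9, 0 to 65, 0 to 3064 and 0 to 145. The highest counts came without library 3, 4, 16 and 11, and at 30 weeks in KO-TRAMP 0 genes were called without library 10, 12 or 18, 2 without library 11 and 13 without library 17. Members called in KO-TRAMP at 30 weeks ranged from 0, without library 10, 11, 12 or 18, to 8 without library 16. At 10 weeks A537T-TRAMP had 0, or 1, Eln, without library 4. In the other 2 comparisons they stayed at 0. The median over members ranged over 0.19 to 0.49, 0.66 to 0.95, 1.69 to 1.94 and 0.47 to 0.89.
Without libraries 17 and 18 the median over members fell to 0.86 in KO-TRAMP at 30 weeks. Without libraries 5 and 6 it was 0.50 in A537T-TRAMP at 10 weeks. These splits leave a single mutant library, so only the sizes of differences are given. Signs turned for Mgp in KO-TRAMP at 10 weeks (0.054 without library 2, 0.14 without library 8, range −0.47 to 0.14), for Fbn1 (−0.12) and Mfap5 (−0.23) there without libraries 8 and 9, for Fbn2 in KO-TRAMP at 30 weeks without libraries 17 and 18 (−0.084), for Mfap5 in A537T-TRAMP at 10 weeks with array weights (−0.046), for Mgp there without library 2 (0.072), library 6 (0.26) or libraries 5 and 6 (0.084), and for Mfap4 in A537T-TRAMP at 30 weeks (−0.0095 with array weights, −0.083 without library 13, range −0.083 to 0.35). Of the further genes named, Ctsl (0.11) and Ctss (0.26) turned in A537T-TRAMP without libraries 5 and 6, Ltbp4 (−0.025) in KO-TRAMP without libraries 8 and 9, and Itgav at 10 weeks in KO-TRAMP ranged over −0.13 to 0.054 with 1 library left out.
No paired analysis was possible because the column headers carry a library number and no replicate number, and no label ties a library to a litter. Depth limits Mfap2, at 0 to 11 reads a library outside KO-TRAMP at 30 weeks, and Fbln5 at 10 weeks.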
